A study of Arabidopsis thaliana with 10 samples.

Results

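The genes described here are 98 nuclear genes of Arabidopsis thaliana whose transcript ratio lay below 1 at every sampled time after plants were moved from light favouring photosystem I (PSI light) to light favouring photosystem II (PSII light). They were chosen by their deposited ratios, above 0 and below 1 at 30 min, 2 h, 8 h and 48 h of PSII light, among the 644 genes that had a spot of their own on the array. In all 102 genes met this criterion, and 4 of them are not described here. The 102 genes were 17.3% of the 588 genes with a value at all 4 times, and among all features of the array, named or not, 581 (19.7%) met it. The values of those 4 columns are therefore given as a description, and nothing is read from the members being low there. The other 6 columns played no part in the choice.

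Leaf RNA of accession Col-0 was hybridised as radioactively labelled cDNA to nylon filters carrying 3292 gene-sequence tags. In the first set of plants, seedlings grown for 21 days on soil in white light (short days of 8 h light and 16 h dark) were kept for 3 days in PSI light, sampled as the reference, and then sampled at 30 min, 2 h, 8 h and 48 h of PSII light. In the second set the order was reversed, with PSII light as the reference state and the same 4 times of PSI light. Each set also has a column for plants acclimated to white light, and what that column is set against is not stated. All plants were wild type, and each sample was a pool of at least 250 to 500 of them. The source labels name thylakoid membranes while the protocols describe total RNA of leaves, and ratios hold no level by which leaf markers could be checked.

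Per the design text 3 independent experiments were made for each time, but each condition was deposited as 1 column of ratios, so no ratio carries an error and nothing could be tested between conditions. The named condition was taken as the numerator, which is the likely reading of the design but is written nowhere, and every direction turns round if it is wrong. Column medians ran from 0.588 to 1.26, and each column held ratios above 0 for 3000 to 3163 of its 3261 features. Values are therefore given either as deposited ratios or as centred values, the log2 ratio minus the log2 median of all features in that column. In RNA of whole leaves, fewer cells of a type and less RNA per cell cannot be told apart.

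Photosystem I and photosystem II work in series in the thylakoid membrane, and light that favours one of them shifts the redox state of the plastoquinone pool between them. That redox state is known to act on the phosphorylation of light-harvesting proteins and on the expression of chloroplast and nuclear photosynthesis genes, by which plants adjust the balance of the photosystems. Most proteins of the chloroplast are encoded in the nucleus, and the array was designed around such genes. Of the 98 members, 19 carry a symbol beyond their locus identifier, and the tables used here give no function for most of the others, which are named by identifier only.

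As deposited, the members were lowest at 48 h and highest at 8 h of PSII light. Their median ratios from 30 min to 48 h were 0.662, 0.686, 0.867 and 0.466. The lowest of the 4 ratios fell at 48 h in 80 of the 98 members, and the highest fell at 8 h in 70. This order followed the columns themselves, whose medians over all features were 0.852, 0.934, 1.16 and 0.588 at the same times. On the centred scale the members' medians were nearly level, at −0.36, −0.44, −0.42 and −0.34, and the time of the lowest value was 30 min for 14 members, 2 h for 17, 8 h for 35 and 48 h for 32.

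A ratio below 1 was not the same as a value below the column median. At all 4 times 67 of the 98 members were below the median, while 24 were below it at 3 times and 7 at 2 times. From 30 min to 48 h, 87, 91, 98 and 78 members were below the median, and over all genes with their own spot the shares were 53.9%, 51.2%, 50.4% and 55%. At 8 h all 98 had to be below it, because the column median of 1.16 lay above 1. At the other times the column medians lay below 1, so that members could be on either side. The 8 h column did most to set who belonged. Another 232 genes failed the criterion at a single time, and 221 of them did so at 8 h. Just inside the threshold, the highest of the 4 ratios was 0.999 for AT4G20760 and AT4G20690, 0.998 for AT5G19150, 0.997 for CHL and 0.996 for AT2G23070. Just outside it, AT3G59980 and AT5G40470 had 1.005 at 8 h, DRT101 and AT1G09200 had 1.006, and AT4G39570 had 1.011.

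**Figure D1:**
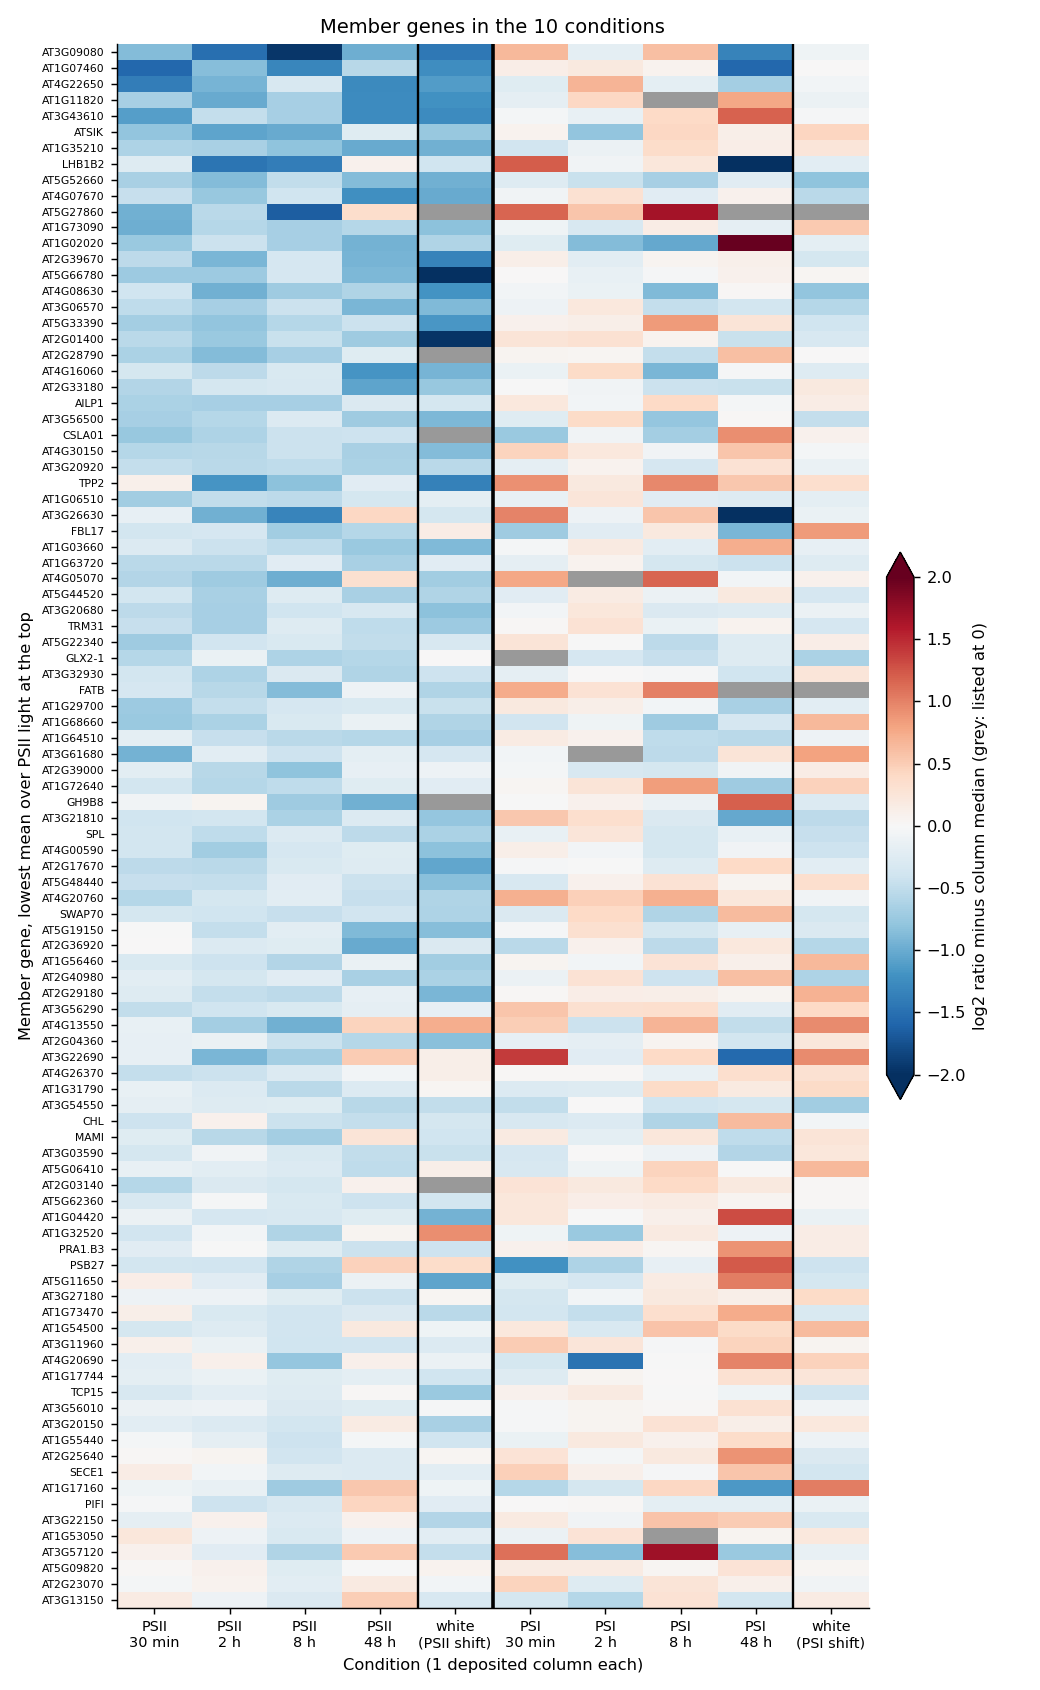
Centred log2 ratios of the 98 member genes (rows, lowest mean over the 4 times of PSII light at the top) in the 10 conditions (columns), with grey where a gene was listed at 0. The 4 columns at the left chose the members and are blue for most rows, as is the neighbouring column for white light, while the 5 columns of the shift to PSI light mix both colours.

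Few members were far below the median in the columns that chose them. From 30 min to 48 h, 3, 5, 6 and 8 members were 2-fold or more below it, where the shares of all genes with their own spot were 1.61%, 2.39%, 1.26% and 4.17%. At no time of PSII light did 83 of the 98 members reach 2-fold below the median, and 65 (66.3%) stayed within 2-fold of it in every column in which they had a value, against 430 of 641 genes with their own spot (67.1%). Only 7 members passed 2-fold below at 2 or more times, namely AT3G09080, AT1G07460, AT4G22650, AT1G11820, AT3G43610, ATSIK and LHB1B2.

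AT3G09080 had the lowest mean of all members over PSII light and was the only member with a ratio at or below 0.5 at all 4 times. Its deposited ratios were 0.468, 0.329, 0.302 and 0.300 in PSII light and 0.294 in white light. After the shift to PSI light it had 1.13, 0.973, 1.05 and 0.500, and 0.842 in white light. As deposited it thus lay near 1 in PSI light until 8 h and was low again at 48 h. Relative to the column medians it was above at 30 min and 8 h, with centred values of 0.64 and 0.61. At 2 h and 48 h it had −0.20 and −1.33.

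AT1G07460 was lowest at the earliest time, with ratios of 0.288, 0.519, 0.467 and 0.400 in PSII light and 0.337 in white light. In PSI light it had 0.798, 1.29, 0.721 and 0.423, and 0.894 in white light. Like AT3G09080, it was among the members below the median at 48 h of both lights.

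AT4G22650, AT1G11820 and AT3G43610 had their lowest deposited ratio at 48 h, as did most members. At 48 h of PSII light AT4G22650 had a ratio of 0.243, and AT1G11820 and AT3G43610 both had 0.245. On the centred scale AT4G22650 was instead lowest at 30 min, with −1.38 against −1.28 at 48 h. Their courses before 48 h differed, since AT4G22650 had 0.328, 0.491 and 0.928 at 30 min, 2 h and 8 h, whereas AT1G11820 had 0.540, 0.462 and 0.731. AT3G43610 had 0.397, 0.671 and 0.735 at those times. They parted at 48 h of PSI light, where AT1G11820 and AT3G43610 had ratios of 2.15 and 2.84 and AT4G22650 had 0.783.

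**Figure D2:**
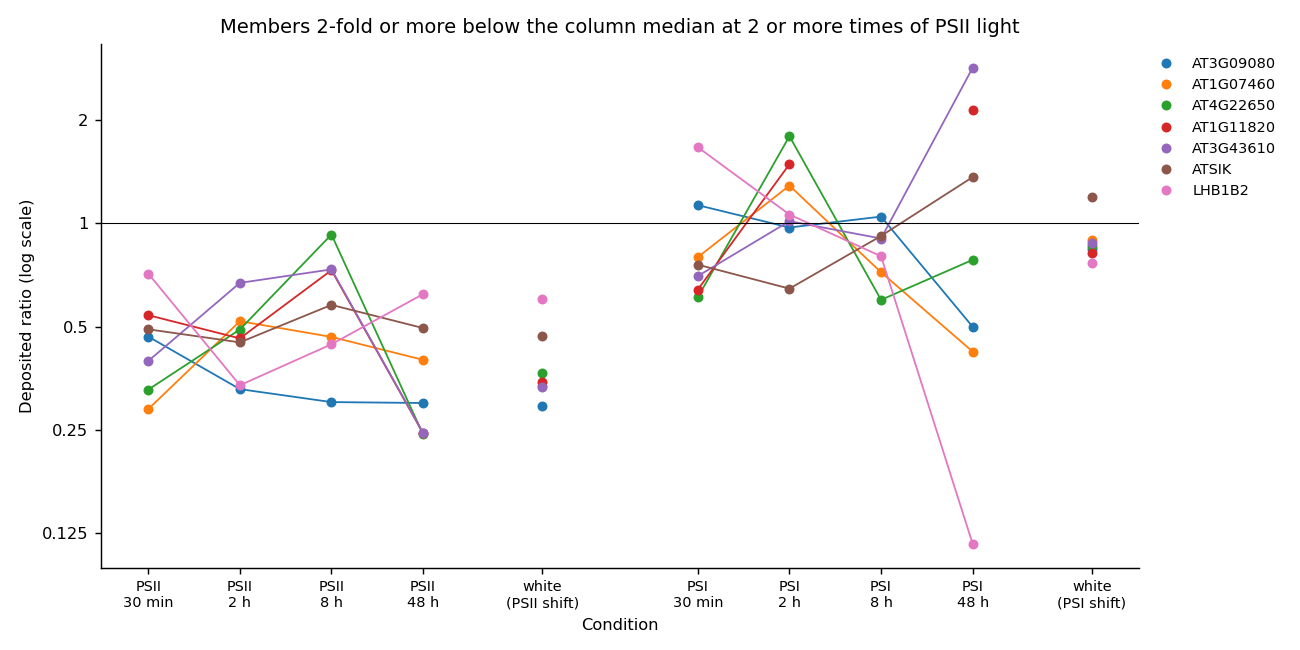
Deposited ratios (vertical axis, log scale) of the 7 members that lay 2-fold or more below the column median at 2 or more times of PSII light, in the 10 conditions; lines join the times of a shift. In the 4 columns that chose them all points lie below 1, and at 48 h of PSI light they spread from 0.116 for LHB1B2 to 2.84 for AT3G43610.

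Among the members tied to the thylakoid membrane, LHB1B2, PSB27 and PIFI shared their side of the median at each time of PSII light. At 8 h that side was fixed by the criterion. CHL and SECE1, described below, did not share it throughout. CHL had a centred value of 0.09 at 2 h and −0.47 at 48 h, and SECE1 had 0.15 at 30 min and −0.27 at 48 h. For LHB1B2, PSB27 and PIFI the sizes of the values differed, and in PSI light their courses parted. LHB1B2 encodes a chlorophyll-binding protein of the photosystem II antenna, and its centred values in PSII light were −0.25, −1.47, −1.38 and 0.08. It was thus low at 2 h and 8 h and at the median at 48 h. PSB27, a lumenal factor for the assembly and repair of photosystem II, was less far down, with −0.37, −0.38, −0.61 and 0.46. PIFI, which is linked to electron flow through the chloroplast NDH complex, lay at −0.03, −0.41, −0.33 and 0.43. These 3 members were above the median at 48 h of PSII light, but as deposited all 3 were below 1 there, with ratios of 0.622, 0.810 and 0.794.

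In PSI light LHB1B2 and PSB27 had values of opposite sign at both ends of the course. LHB1B2 had a centred value of 1.20 at 30 min and −3.44 at 48 h, the lowest of any member. PSB27 had −1.21 and 1.23 at the same times, and its ratio of 0.312 at 30 min was the lowest of any member in that column. PIFI stayed between −0.20 and 0.02 throughout PSI light.

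Also known from the chloroplast are the products of CHL, SECE1 and AT2G23070. CHL encodes the chloroplast lipocalin, known for protecting thylakoid lipids under stress, and its ratios in PSII light were 0.637, 0.997, 0.862 and 0.423. SECE1, a subunit of the thylakoid Sec translocase, had 0.942, 0.899, 0.967 and 0.488. As deposited it was well below 1 only at 48 h, where the column median was 0.588. Its centred values at 8 h and 48 h were −0.26 and −0.27. AT2G23070, listed as the chloroplast catalytic subunit of the protein kinase CK2, had 0.832, 0.981, 0.996 and 0.664, and was among the members nearest to the column medians throughout, with centred values between −0.26 and 0.44 over all 10 columns. At 48 h of PSI light CHL had a ratio of 1.95, SECE1 of 1.85 and AT2G23070 of 1.35, beside a column median of 1.26.

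The protein kinase gene ATSIK was among the steadiest of the low members as deposited. Its ratios were 0.491, 0.450, 0.579 and 0.496 in PSII light and 0.470 in white light, against 0.758, 0.646, 0.919 and 1.36 in PSI light. Relative to the median it was lower at 2 h of PSII light, with a centred value of −1.05, than at 48 h, with −0.25.

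Enzymes of protein and lipid metabolism included members that were above 1 after the reverse shift. TPP2 encodes tripeptidyl peptidase II, which removes short peptides from protein ends, and had ratios of 0.914, 0.412, 0.658 and 0.502 in PSII light and 0.310 in white light. In PSI light its ratios were 1.36, 1.28, 1.34 and 1.82, and TPP2 and AT4G20760 were the only members above 1 at all 4 of those times. FATB, the acyl-carrier-protein thioesterase that releases saturated fatty acids in the chloroplast, had 0.677, 0.639, 0.636 and 0.546 in PSII light. In PSI light it had 1.21, 1.36 and 1.38 up to 8 h and was listed at 0 at 48 h and in white light, where it has no value.

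CSLA01, of the cellulose synthase-like A family, had ratios of 0.502, 0.611, 0.864 and 0.440 in PSII light, and GH9B8, a glycosyl hydrolase of family 9, had 0.810, 0.972, 0.709 and 0.301. Both were listed at 0 in white light of that shift, and both were high at 48 h of PSI light, with 2.39 and 2.90. GLX2-1, of the glyoxalase II family, had 0.577, 0.856, 0.752 and 0.397 in PSII light, and between 0.500 and 1.05 at the later 3 times of PSI light after being listed at 0 at 30 min.

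Regulators and membrane traffic genes with a symbol stayed within 2-fold of the median in PSII light. TCP15 and SPL encode transcriptional regulators, and their centred values there ran from −0.32 to 0.02 and from −0.52 to −0.28. FBL17, an F-box protein of the cell cycle, ran from −0.70 to −0.34, and in PSI light it was among the 3 lowest members at 30 min with −0.71. SWAP70, TRM31 and PRA1.B3 lay between −0.67 and −0.01 at the 4 times of PSII light, and MAMI and AILP1 between −0.68 and 0.25. Of all 19 members with a symbol, 10 were below the median at all 4 times, and ATSIK, LHB1B2 and TPP2 were the 3 that reached 2-fold below it at any.

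**Figure D3:**
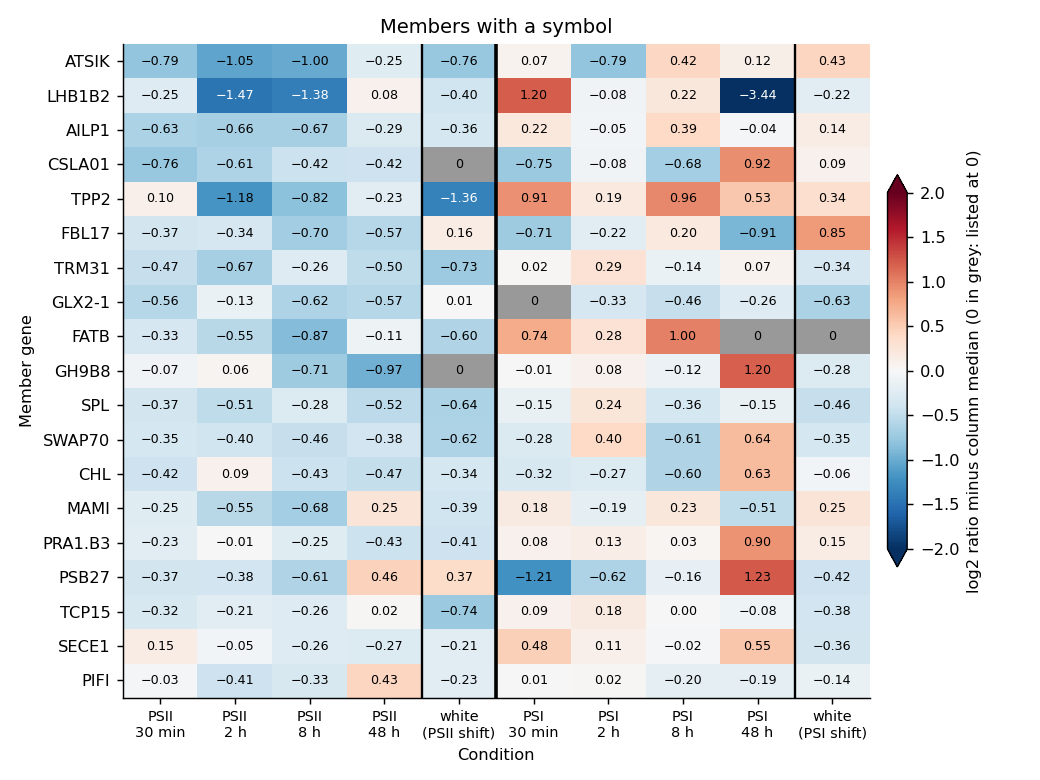
Centred log2 ratios, printed in each cell, of the 19 members with a symbol (rows) in the 10 conditions (columns); a grey 0 marks a gene listed at 0. LHB1B2 and PSB27 have values of opposite sign at 30 min and 48 h of PSI light, 1.20 and −3.44 against −1.21 and 1.23.

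White-light plants of the shift to PSII light gave low values for nearly all members. Of 93 members with a value there, 90 had a ratio below 1, against 74.9% of all genes with their own spot, and 81 lay below the column median, against 52.1%. The members' median centred value was −0.59, while the other genes with their own spot had 0.05. At 2-fold or more below the median were 14 members, against 31 of all 609 genes (5.09%). Whether this column shares its reference plants with the times of PSII light is not stated, so a low level in white light and a high level in that reference cannot be told apart.

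Several members were lower in white light than at any time of PSII light. AT5G66780 had a ratio of 0.193 in white light, against 0.514, 0.562, 0.919 and 0.316 in PSII light, and AT2G01400 had 0.204, against 0.587, 0.559, 0.852 and 0.358. AT3G09080 and TPP2 were the next lowest on the centred scale, with −1.43 and −1.36. On that scale AT3G09080 was lower still at 2 h and 8 h of PSII light, with −1.51 and −1.94. The 3 members above 1 in white light were AT1G32520 with a ratio of 1.51, AT4G13550 with 1.32 and PSB27 with 1.03.

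After the shift to PSI light the members as a set lay at the column medians. Their median centred values were −0.03, 0.02, 0.01 and 0.06 from 30 min to 48 h, and −0.06 in white light. For the other genes with their own spot the medians were −0.05, 0.03, −0.09, 0.02 and 0.03 in the same order. The plot of members and other genes by condition shows both sets in each of these columns.

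Counts of members gave the same picture. Of 96 or 97 members with a value, 52, 44, 47 and 43 were below the median from 30 min to 48 h, and 52 in white light, where the shares of all genes with their own spot were 56%, 43.8%, 55.5%, 47.5% and 48.1%. As deposited, 82, 25, 83 and 25 members were below 1 from 30 min to 48 h, and 67 in white light, beside shares of 87.3%, 24.2%, 83.8%, 26.6% and 68%. The members' own shares, in the same order, were 84.5%, 26.0%, 86.5%, 26.0% and 69.8%, close to those of all genes in each column. Of 91 members with a value at all 4 times of PSI light, 4 were below the median at every time and 8 at none, and of all 590 such genes these counts were 25 and 36.

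**Figure D4:**
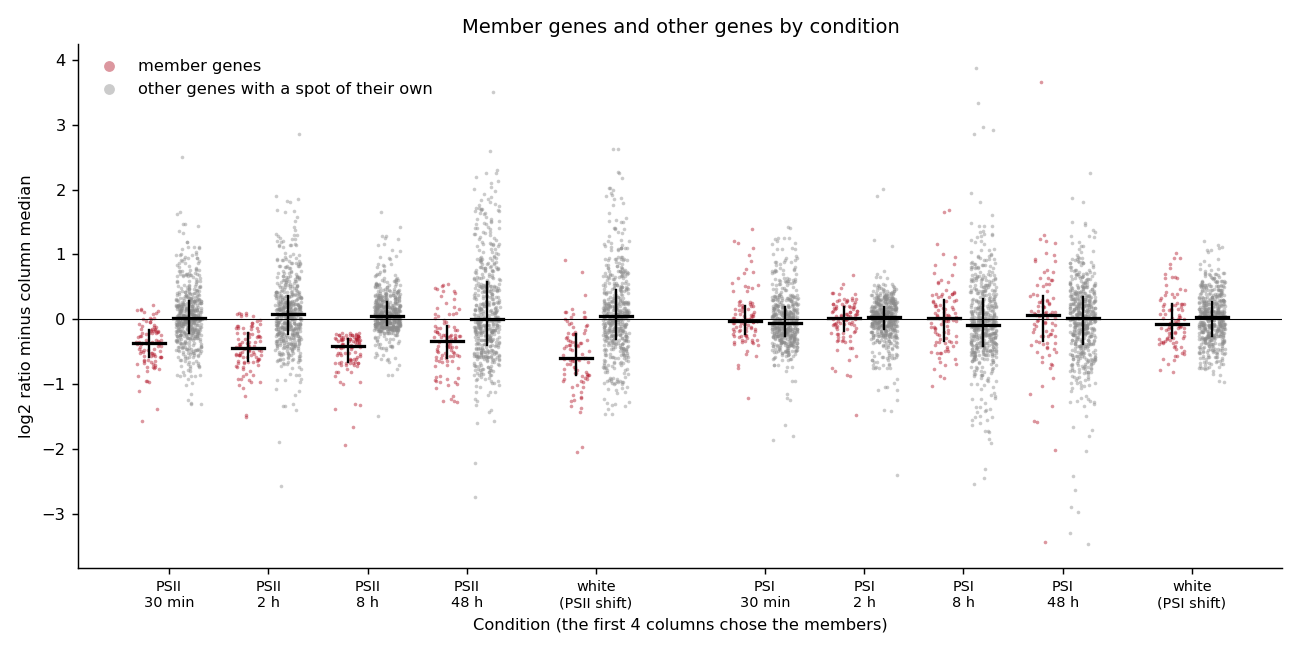
Centred log2 ratios of the 98 members (red, left) and of the other genes with a spot of their own (grey, right) in the 10 conditions; horizontal bars are medians and vertical bars span the middle 50% of genes. The 4 columns at the far left chose the members, which are low there by that choice; in the other columns the members' median is −0.59 in white light of the shift to PSII light and between −0.06 and 0.06 in the 5 columns of the shift to PSI light.

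Another 80 genes were above 1 at all 4 times of PSII light, chosen by the same cut on the other side. The cut did not make a matched set, because the column medians were not at 1. In the columns that chose them, the 80 genes had median centred values of 0.69, 0.90, 0.49 and 1.42. Those of the members were −0.36, −0.44, −0.42 and −0.34, nearer to the column medians at each time. In the shift to PSI light the medians of the 80 genes were 0.32, −0.13, 0.51 and −0.33 from 30 min to 48 h. In its white light the median was 0.23. Each was again farther from the column median than that of the members. With 1 column per condition this difference could not be tested.

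Single members did move in PSI light. From 30 min to 48 h, 1, 1, 1 and 7 members were 2-fold or more below the median, and 0 in white light, where the shares of all genes with their own spot were 1.13%, 1.43%, 5.18%, 5.26% and 0%. Above it by 2-fold or more were 4 members at 30 min, 4 at 8 h and 6 at 48 h, beside 2.9%, 5.18% and 3.83%. The members low at single times were PSB27 at 30 min, AT4G20690 at 2 h with a ratio of 0.402, and AT1G02020 at 8 h with 0.339.

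AT1G02020 had the widest range of all members on the centred scale, 4.67, ahead of LHB1B2 with 4.64, but if the ratios at 2 h and 48 h of PSI light ran the other way the ranges would be 4.52 for AT1G02020 and 4.90 for LHB1B2. Its ratios were 0.512, 0.694, 0.733 and 0.304 in PSII light and 0.522 in white light, then 0.610, 0.614 and 0.339 at 30 min, 2 h and 8 h of PSI light, and 15.8 at 48 h. The last value was 12.6 times the column median, and the gene was below 1 in every other column. It is a single value with no replicate.

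AT3G26630 and AT3G22690 had courses close to that of LHB1B2, a likeness picked out after the values were seen. AT3G26630 had ratios of 0.756, 0.480, 0.463 and 0.780 in PSII light and 1.43, 1.05, 1.01 and 0.312 in PSI light. AT3G22690 had 0.758, 0.493, 0.725 and 0.838, then 1.90, 0.958, 0.902 and 0.428. In LHB1B2 the ratios were 0.714, 0.338, 0.444 and 0.622, then 1.67, 1.06, 0.802 and 0.116. All 3 were thus lowest at 2 h or 8 h of PSII light, highest at 30 min of PSI light and lowest of all at 48 h of PSI light. The likeness did not hold for AT3G22690 in white light. In white light of the shift to PSI light it had 1.71, against 0.807 for AT3G26630 and 0.766 for LHB1B2. In that of the shift to PSII light the ratios were 0.863, 0.623 and 0.603 in the same order.

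AT3G57120, AT5G27860 and AT4G05070 were instead highest at 8 h of PSI light. AT3G57120 had a ratio of 2.22 there and 1.55 at 30 min, against 0.618 at 2 h and 0.753 at 48 h. AT5G27860 had 1.63, 1.64 and 2.17 at the earlier 3 times and was listed at 0 at 48 h and in both white light columns. AT4G05070 was listed at 0 at 2 h and had 1.24, 1.54 and 1.22 at the other times. Their lowest time in PSII light was 8 h for AT3G57120 and AT5G27860, with 0.761 and 0.368.

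Members could be divided by their side of the median at 48 h of PSII light, a division made on a column that also chose them and drawn after the values were seen. The 20 members above the median there had a median centred value of 0.20 at 30 min of PSI light, and the 78 below it had −0.04. At 8 h of PSI light the medians were 0.34 and −0.06, with 16 of 20 and 33 of 76 members above the column median, where 275 of all 618 genes with their own spot were above it. At 2 h they were −0.23 and 0.07, and at 48 h −0.11 and 0.08. All 4 members that were 2-fold or more above the median at 30 min of PSI light, AT3G22690, LHB1B2, AT5G27860 and AT3G57120, belonged to the 20. So did members far below it, namely PSB27 at 30 min, AT4G20690 at 2 h and 4 of the 7 at 48 h of PSI light. Of the 6 members 2-fold or more above the median at 48 h of PSI light, 1 belonged to the 20. The same division was made of genes that were no members but lay below the median at 2 h and 8 h of PSII light. It too rests on columns that chose the members, so it is a description only. At 30 min and 8 h of PSI light the 22 such genes above the median at 48 h had medians of 0.04 and −0.03. They thus lay near the column medians, with 12 of 22 and 10 of 21 above them. The 96 genes below the median at 48 h had −0.13 and −0.37, the lower medians at both times, as among the members. At 2 h and 48 h of PSI light the 22 genes had medians of 0.08 and −0.18, and the 96 had 0.14 and −0.06.

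**Figure D5:**
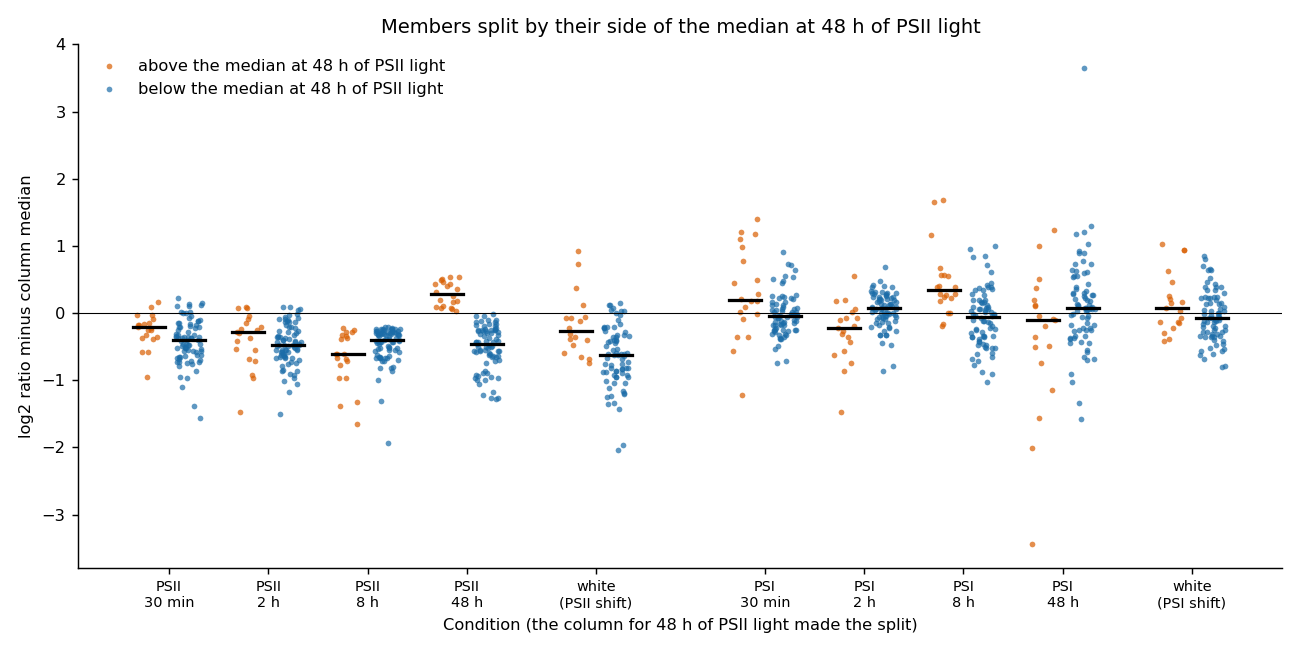
Centred log2 ratios in the 10 conditions of the 20 members above (orange, left) and the 78 members below (blue, right) the median when sampled at 48 h of PSII light; bars are medians. At 30 min and 8 h of PSI light the orange medians are 0.20 and 0.34 and the blue ones −0.04 and −0.06.

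AT5G52660 was the only member below the median in all 10 columns, with centred values between −0.96 and −0.22. Of all 551 genes with a value in every column, 2 were below the median throughout. AT3G13150 was the only member with a ratio below 1 in all 10 columns, from 0.566 at 30 min of PSI light to 0.998 in white light of that shift, yet on the centred scale it lay above the median at 4 of the 10. Among the 87 members with a value in all 10 columns, the smallest ranges were those of AT5G09820, AT3G56010, AT5G62360, AT3G54550 and AT1G17744, from 0.51 to 0.70 on the log2 scale, and the largest were 4.67 for AT1G02020, 4.64 for LHB1B2, 3.00 for AT3G26630, 2.95 for AT3G22690 and 2.58 for AT3G09080.

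Values at 0 touched 11 of the 98 members, and the other 87 had a ratio above 0 in all columns. No member was listed at 0 in the 4 columns that chose them, since the criterion required a value. Listed at 0 in white light of the shift to PSII light were AT2G03140, AT2G28790, AT5G27860, CSLA01 and GH9B8, so the count there rests on 93 members.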

How the data were processed

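The deposited table gives linear ratios per spot of each condition to a reference, per the labels; the sources used here do not give the signal, background correction, scaling or how the 3 experiments were combined. Of 3262 spots, 645 were paired with exactly 1 gene in the platform annotation, 829 with several and 1788 with none. The TAIR10.1 gene table held 643 of the 645 identifiers and 97 of the 98 members; AT1G03660 kept its annotated name. A gene with 2 spots was given their mean log2 ratio, leaving 3261 features and 644 genes. A ratio of 0 was treated as no value. Analysis used Python 3.11.15 with pandas 2.3.3 and numpy 2.4.6, and the steps were tested on simulated data. With 1 column per condition no test was made. Members and lists were chosen with earlier results of these data known.

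Keywords of 12 roles, searched in RefSeq symbols and synonyms, placed 5 members (PIFI and LHB1B2 in photosynthesis, TPP2 in protein turnover, FATB in lipids, GH9B8 in carbohydrates) and 31 of 644 genes, so members with a symbol were described instead. Genes were named for the lowest means in PSII light, the extremes of each other column, the ranges, the threshold or their symbol. The planned promoter and protein features were not made, because no sequence table was used here. Alternatives were centring, quantile normalization, other thresholds, each time point left out, other summaries and inverted columns.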

Additional observations from a re-analysis of the deposited data

How the results depend on the processing

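With 1 column per condition, results depend on the scale rather than on a spread, and how far signal stood above background is unknown. The number of members, 98, became 4 when each ratio had to be at least 1.5-fold below 1, 1 at 2-fold, and 318 without the 8 h column. It was 144 under centring and 144 under quantile normalization. Centring also changed which genes belonged, since 67 of the 98 members were below the median at all 4 times. The number stayed within 1.5 times with zeros counted as below, genes with all 10 values, and each other time left out. Without centring the members' medians were −0.92 in white light of the shift to PSII light, −0.49, 0.18, −0.53 and 0.39 over the times of PSI light, and −0.23 in its white light; those of PSI light lie on the side of the column medians, and the one at 8 h reverses. Below a deposited 1 were 82, 25, 83 and 25 members at those 4 times.

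Quantile normalization, means, another centre, subsets of members, and inverted 2 h and 48 h columns of PSI light left each median within its 95% binomial interval over genes. That interval treats genes as independent draws, although the members were set by a fixed rule and share each column. It serves only as a yardstick of size and holds no experimental error. Members 1.5-fold below the median numbered 23, 29, 31 and 26 from 30 min to 48 h of PSII light, 47 in its white light, 3, 6, 9 and 12 in PSI light and 5 in its white light; at 3-fold they were 0, 0, 2 and 0, then 2, then 0, 0, 0 and 2. At 2-fold below a deposited 1 PSII light had 8 members at 30 min, 10 at 2 h and 64 at 48 h, with 36 in its white light, and 4 at 30 min and 15 at 8 h of PSI light. For these other thresholds no share of all genes is given, so the counts are not read as a trait of the members. At 48 h of PSII light the column median was 0.588, and 83.3% of all genes with their own spot were below 1. No paired analysis was possible because each condition is 1 column. If the ratios at 2 h and 48 h of PSI light, where the column medians lie above 1, ran the other way, 52 and 53 members would be below the median there.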

Other observations

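Neighbouring members are given as counts only, because the number of such pairs falls faster than the size of a set. In the order of protein-coding genes of the TAIR10.1 table, 1 pair of the 97 placed members lay side by side, AILP1 and AT5G19150, and among all 642 placed genes with their own spot there were 12 such pairs. AILP1 had ratios of 0.552, 0.591, 0.728 and 0.480 in PSII light, and AT5G19150 had 0.851, 0.669, 0.998 and 0.317. Both had their lowest ratio at 48 h, and at 30 min AILP1 had a centred value of −0.63 while AT5G19150 lay at the column median. In PSI light both were below 1 at 30 min and 8 h and above it at 2 h and 48 h, the side on which the column medians lie.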
